A study of Mus musculus with 27 samples.

Results

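The natriuretic peptide system of the postnatal mouse heart was described through 7 genes. They were chosen by name: the prohormone genes Nppa, Nppb and Nppc, the receptor genes Npr1, Npr2 and Npr3, and Corin, which encodes a processing protease. Each was matched by its Ensembl identifier, so the members are 7 of the 51826 rows of the deposited count table. The filter on low counts left 19119 genes to test, 6 of the members among them. Nppc did not pass it.

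The hearts came from CD-1 pups at postnatal day 14, with 3 hearts in each of 9 groups and 27 libraries in all. The labels divide the groups into 2 sequencing sets. Set A held pups given PTU with both blockers (PTU+PHE+PRO), PTU with phenoxybenzamine (PTU+PHE), both blockers without PTU (PHE+PRO), phenoxybenzamine alone (PHE) and saline (saline A). Set B held pups given PTU with propranolol (PTU+PRO), PTU alone (PTU), propranolol alone (PRO) and saline (saline B). PTU is propylthiouracil, a drug that blocks thyroid hormone synthesis. It was fed to the pregnant mothers as 0.15% of an iodine-deficient chow from day E13.5 of gestation and was kept up after birth, so the pups received it through their mother, and the drug and the chow cannot be told apart. Phenoxybenzamine, an alpha-adrenergic blocker, was given at 10 ug per g of body weight per day, and propranolol, a beta-adrenergic blocker, at 20 ug per g per day. Both were injected under the skin daily from postnatal day 1. The labels give injections from postnatal day 1 for all 9 groups, the saline and PTU groups included. Which pups shared a litter is not given in the sources used here, so the p-values below measure the spread between these hearts, which may include litter.

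Natriuretic peptides are small hormones that lower blood pressure and blood volume. Nppa encodes the precursor of atrial natriuretic peptide (ANP) and Nppb that of B-type natriuretic peptide (BNP), both made by heart muscle cells. Ventricular muscle makes much ANP before birth and little in the adult, while the atria go on making it, and both genes are widely used as markers of a loaded or fetal-like ventricle. Nppc encodes the precursor of C-type natriuretic peptide (CNP), made mainly by endothelium and growing cartilage. Corin is a membrane serine protease of heart muscle that cleaves the ANP precursor. ANP and BNP bind the receptor encoded by Npr1 and CNP binds that encoded by Npr2. Both receptors are guanylyl cyclases that make cyclic GMP. Npr3 encodes a receptor without the cyclase, which takes the peptides into the cell and clears them.

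Nppa (ENSMUSG00000041616) lies on chromosome 4 at 148000722 to 148002079 and Nppb (ENSMUSG00000029019) at 147985788 to 147987205, both on the plus strand of mm10, with 13516 bp between them. Npr2 (ENSMUSG00000028469) is also on chromosome 4, at 43631935 to 43651244 on the plus strand. Nppc (ENSMUSG00000026241) is on chromosome 1 at 86666291 to 86670571, Npr1 (ENSMUSG00000027931) on chromosome 3 at 90450591 to 90465866, Npr3 (ENSMUSG00000022206) on chromosome 15 at 11839896 to 11907287, and Corin (ENSMUSG00000005220) on chromosome 5 at 72300025 to 72504473, all on the minus strand. The reads counted here fall on the exons of these genes.

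The promoters of the neighbouring pair are shown because the levels of Nppa and Nppb differed from each other between groups. They are the 250 bases before the RefSeq start of each gene (GRCm38.p6, plus strand), at chr4:148000472-148000721 for Nppa and chr4:147985650-147985899 for Nppb. The GENCODE model of Nppb starts inside that window. Capitals mark the motifs found on either strand.
Nppa promoter: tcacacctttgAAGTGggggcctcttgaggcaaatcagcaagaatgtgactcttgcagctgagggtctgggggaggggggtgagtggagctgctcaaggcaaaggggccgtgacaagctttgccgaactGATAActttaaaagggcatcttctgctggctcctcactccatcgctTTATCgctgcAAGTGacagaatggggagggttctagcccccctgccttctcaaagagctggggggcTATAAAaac
Nppb promoter: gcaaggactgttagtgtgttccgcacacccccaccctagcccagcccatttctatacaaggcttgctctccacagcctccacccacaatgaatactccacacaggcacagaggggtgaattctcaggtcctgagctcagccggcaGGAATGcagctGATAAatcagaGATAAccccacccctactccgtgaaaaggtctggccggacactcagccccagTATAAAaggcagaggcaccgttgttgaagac
Both strands were searched and no marked matches overlap. Both promoters held the TATA box, searched as TATAAA, which is in 12.4% of 32851 promoters of this length. Each held the binding letters of GATA factors at 2 places, searched as GATAA and present in 22.6% of promoters. Nppa alone held the core of the NK-2 element at 2 places, searched as AAGTG and present in 40.7%. Nppb alone held the M-CAT element, searched as GGAATG and present in 12.6%. The nuclear receptor half-site, searched as AGGTCA and present in 14.0%, was found in neither window. The cyclic AMP response element, searched as TGACGTCA and present in 1.55%, was also in neither. These matches describe the letters only.

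The libraries held 30791885 to 78913915 counted reads. Levels are given as CPM (read counts divided by the library total in units of 1e6 reads), scaled between libraries by the trimmed mean of M-values (TMM). A gene was said to have risen or fallen where edgeR's quasi-likelihood test gave, after Benjamini-Hochberg adjustment across the 19119 genes, p under 0.05. The hearts were labelled as whole, but the atrial genes Sln, Myl7 and Mybphl were near 0 in every library. Sln had 0 to 9 reads, Myl7 at most 0.865 CPM and Mybphl at most 0.544 CPM, while the ventricular gene Myl2 had 5322 to 23197 CPM. The other genes listed as atrial and used below reached higher levels: Kcna5 was at 9.10 to 72.1 CPM, Dkk3 at 11.3 to 65.1 and Kcnj3 at 1.24 to 20.3. Myl4 was at 2.84 to 10.3 CPM and Bmp10 at 0 to 6.20 CPM. Same-numbered saline hearts of the 2 sets stood apart from the rest by resembling each other: over 18 pairs of member values they differed by a median of 5.06%, and by 15.2% at most. The labels list them as separate samples, and whether they are separate animals is not given in the sources used here. The fit of the 9 groups and the correlations over the 27 hearts counted them as separate hearts. In libraries whose groups include PHE, long genes were low relative to short ones, by -0.52 to 0.00 on the log2 scale, against 0.05 to 0.15 in saline A and 0.08 to 0.20 in set B. The sex read from the data was female in 11 hearts and male in 16, and all 3 PHE hearts were male.

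Per kilobase of exon, Nppb had the highest mean of the members in both saline groups, although Nppa was marginally above it in heart 3 of each. In saline A, Nppb averaged 164 ± 69.8 CPM per kb, Nppa 74.1 ± 18.1, Corin 30.6 ± 11.1, Npr2 17.8 ± 0.759, Npr1 12.4 ± 0.141, Npr3 2.11 ± 0.568 and Nppc 0.0319 ± 0.0391 (SD, n = 3). The peptides varied far more than their receptors. Across the 27 hearts the highest level of Nppa was 236 times the lowest and that of Nppb 10.1 times, against 4.81 times for Corin, 3.61 for Npr3, 2.12 for Npr1 and 1.55 for Npr2. Single hearts set the width of the peptides' ranges: without PTU+PHE heart 2 the Nppa ratio was 53.2, and without PTU+PHE+PRO heart 2 the Nppb ratio was 5.63.

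Nppa, the ANP gene, gave the lowest group level under PTU alone and the highest under PTU with propranolol. In PTU+PRO hearts it stood at 326, 546 and 209 CPM, in PTU hearts at 24.1, 11.5 and 10.3 CPM, and in PRO hearts at 282, 94.6 and 145 CPM, against 39.6, 67.3 and 75.1 CPM in saline B hearts. All PTU+PRO and all PRO hearts were above every saline B heart, and all PTU hearts were below. The group means were 360 ± 171 CPM in PTU+PRO, 15.3 ± 7.69 in PTU and 174 ± 97.0 in PRO hearts, against 60.7 ± 18.7 CPM in saline B (SD, n = 3 each).

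Nppa rose in PTU+PRO hearts against saline B, by 2.57 ± 0.94 on the log2 scale (SE), or 5.94-fold (edgeR, adjusted p = 0.0395). It was the 1 member of 6 called there, where 35.9% of all tested genes were called. That call was lost when PTU+PRO heart 1 (adjusted p = 0.0623) or heart 2 (2.15, adjusted p = 0.124) was left out, and likewise without saline B heart 1, 2 or 3 (0.128, 0.0918 and 0.0823). In PTU hearts the log2 difference from saline B was -1.98 ± 0.93 (edgeR, adjusted p = 0.120). No member passed there, where 29.4% of all genes did, 1 member had an unadjusted p under 0.05, and DESeq2 called 0. With only the 12 hearts of set B fitted, Nppa was called in PTU hearts (edgeR, adjusted p = 0.0195), and also with the 6 hearts of these groups alone (0.0246). In PRO hearts the difference was 1.52 ± 0.91 (adjusted p = 0.749). No member passed in that comparison, by edgeR or DESeq2, none had an unadjusted p under 0.05, and 0.272% of all genes were called.

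Propranolol added to PTU was the largest Nppa contrast of set B. Nppa rose in PTU+PRO hearts against PTU hearts by 4.56 ± 1.03 on the log2 scale, or 23.5-fold (edgeR, adjusted p = 0.0495), with all 3 hearts above. It was 1 member of 6, where 0.643% of all genes were called. The adjusted p passed the threshold in no fit that left out a heart, at 0.0744 to 0.213. The difference between the propranolol effect with and without PTU was 3.04 ± 1.29 (adjusted p = 0.854). No member was called for that difference, where 0.0157% of genes were; 1 member had an unadjusted p under 0.05, and DESeq2 called 0. PTU+PRO against PRO gave 1.05 ± 0.89 (adjusted p = 0.418), and those hearts overlapped.

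In set A Nppa was uneven between hearts. It stood at 174, 388 and 269 CPM in PTU+PHE+PRO hearts, 182, 2.31 and 91.6 CPM in PTU+PHE hearts, 106, 103 and 229 CPM in PHE+PRO hearts and 34.3, 291 and 111 CPM in PHE hearts, against 46.1, 72.1 and 74.2 CPM in saline A hearts. All PTU+PHE+PRO and all PHE+PRO hearts were above every saline A heart, while PTU+PHE and PHE hearts lay on both sides. PTU+PHE heart 2, with 139 Nppa reads, was the lowest of the 27 hearts. The log2 difference from saline A was 2.11 ± 0.92 in PTU+PHE+PRO (edgeR, adjusted p = 0.0611), 0.52 ± 0.89 in PTU+PHE (0.644), 1.19 ± 0.90 in PHE+PRO (0.462) and 1.18 ± 0.90 in PHE hearts (0.393). The PTU+PHE difference was -0.45 without PTU+PHE heart 1 and 1.09 without heart 2, and the PHE difference was 0.13 without PHE heart 2. Nppa in PTU+PHE+PRO was called by DESeq2 (adjusted p = 0.0266) and with only these 6 hearts fitted (0.00141).

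**Figure D1:**
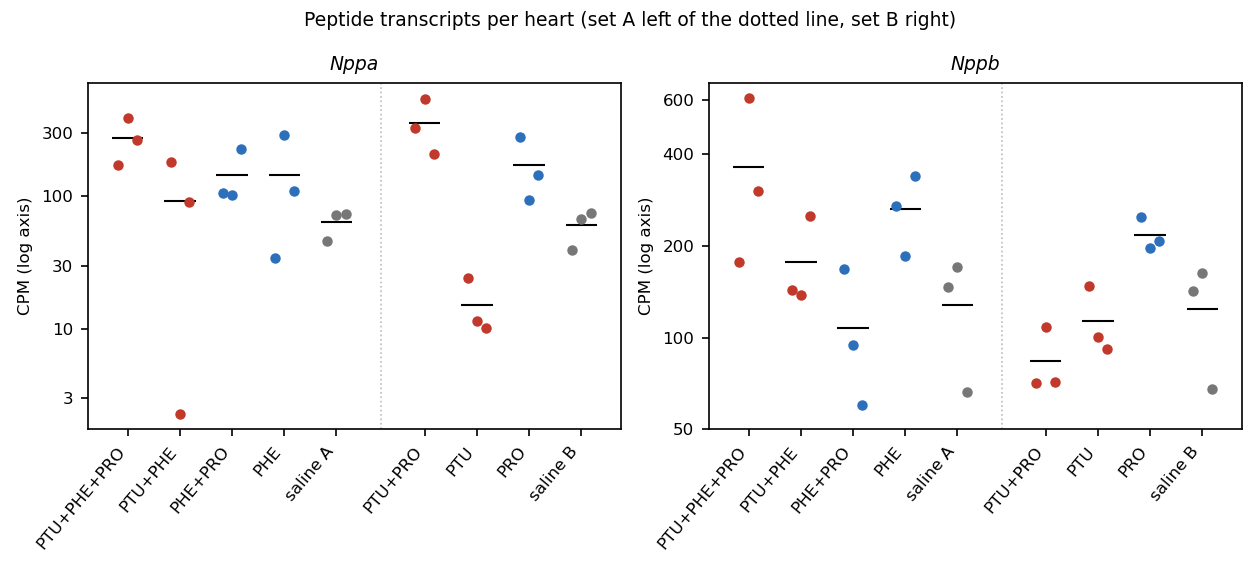
Nppa and Nppb levels in CPM (log axis) in each of the 27 hearts, 3 points a group, with set A left of the dotted line and set B right of it; bars are group means, and red marks groups with PTU, blue the blockers without PTU and grey saline. Nppa was at 10.3 to 24.1 CPM in the 3 PTU hearts and at 209 to 546 CPM in the 3 PTU+PRO hearts, and Nppb was highest in PTU+PHE+PRO heart 2.

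The other atrial genes moved in both directions. The 8 atrial markers summed to 72.6 to 87.6 CPM in PTU+PHE+PRO hearts, against 75.2 to 93.2 CPM in saline A. In set B the sum was 78.0 to 80.6 CPM in PTU+PRO, 71.7 to 79.1 in PTU and 53.8 to 56.9 in PRO hearts, against 75.3 to 95.2 CPM in saline B. Of the 7 markers tested, 2 rose (Bmp10 and Dkk3) and 3 fell (Kcna5, Kcnj3 and Myl7) in PTU+PRO against saline B. The share of all genes called there was 35.9%. The markers' part in the Nppa values was not tested. In bulk RNA of this kind, fewer cells of a type and less RNA per cell cannot be told apart.

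Nppb, the BNP gene, followed another order, with its highest group mean under all 3 drugs. That rank rested on PTU+PHE+PRO heart 2, without which the group mean of 239.5 CPM was below that of PHE hearts. Of the 27 libraries, that of heart 2 was also the lowest for long genes relative to short ones, at -0.52 on the log2 scale. Nppb is short, with 781 bp of exon, and the part of gene length in this rank was not tested. Nppb stood at 177, 609 and 302 CPM in PTU+PHE+PRO hearts, 144, 137 and 250 CPM in PTU+PHE hearts, 168, 94.8 and 60.0 CPM in PHE+PRO hearts and 270.4, 186 and 338 CPM in PHE hearts, against 147, 170.0 and 66.2 CPM in saline A hearts. All PTU+PHE+PRO and all PHE hearts were above every saline A heart. The means were 363 ± 222 CPM in PTU+PHE+PRO, 177 ± 63.2 in PTU+PHE, 108 ± 55.0 in PHE+PRO and 265 ± 76.3 in PHE hearts, against 128 ± 54.5 CPM in saline A (SD, n = 3 each).

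Nppb rose in PTU+PHE+PRO hearts against saline A by 1.51 ± 0.46 on the log2 scale, or 2.84-fold (edgeR, adjusted p = 0.00968). It was the only member to rise there; 3 fell, so that 4 of 6 were called where 54.7% of all genes were. The call was lost without PTU+PHE+PRO heart 2 (0.87, adjusted p = 0.130) and without saline A heart 3 (1.14, adjusted p = 0.0622). With an offset for gene length the difference was 1.26 (adjusted p = 0.0227). The 4 ventricular markers all rose there, their sum being 12625 to 23395 CPM in PTU+PHE+PRO hearts against 6866 to 7599 CPM in saline A. All 4 rose in PTU+PHE hearts too, where Nppb was not called, with sums of 16218 to 19741 CPM. Myl2, at 5322 to 23197 CPM over all hearts, made up most of the sum. The markers' part in the Nppb value was not tested. Against saline A, Nppb differed by 1.05 ± 0.46 in PHE hearts (adjusted p = 0.123), 0.47 ± 0.45 in PTU+PHE (0.400) and -0.25 ± 0.45 in PHE+PRO (0.789). No member passed in PHE hearts, where 14.8% of genes were called, 1 member had an unadjusted p under 0.05 and DESeq2 called 0. Likewise none passed in PHE+PRO hearts, where 5.59% of genes were called, no member had an unadjusted p under 0.05 and DESeq2 called 0.

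In set B Nppb stood at 70.8, 108 and 71.3 CPM in PTU+PRO hearts, 147, 101 and 92.0 CPM in PTU hearts and 249, 197 and 208 CPM in PRO hearts, against 142, 162 and 67.7 CPM in saline B hearts. The PRO hearts were all above saline B, and the other groups overlapped it. The log2 differences from saline B were -0.57 ± 0.46 in PTU+PRO (edgeR, adjusted p = 0.356), -0.13 ± 0.45 in PTU (0.866) and 0.81 ± 0.46 in PRO hearts (0.721).

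**Figure D2:**
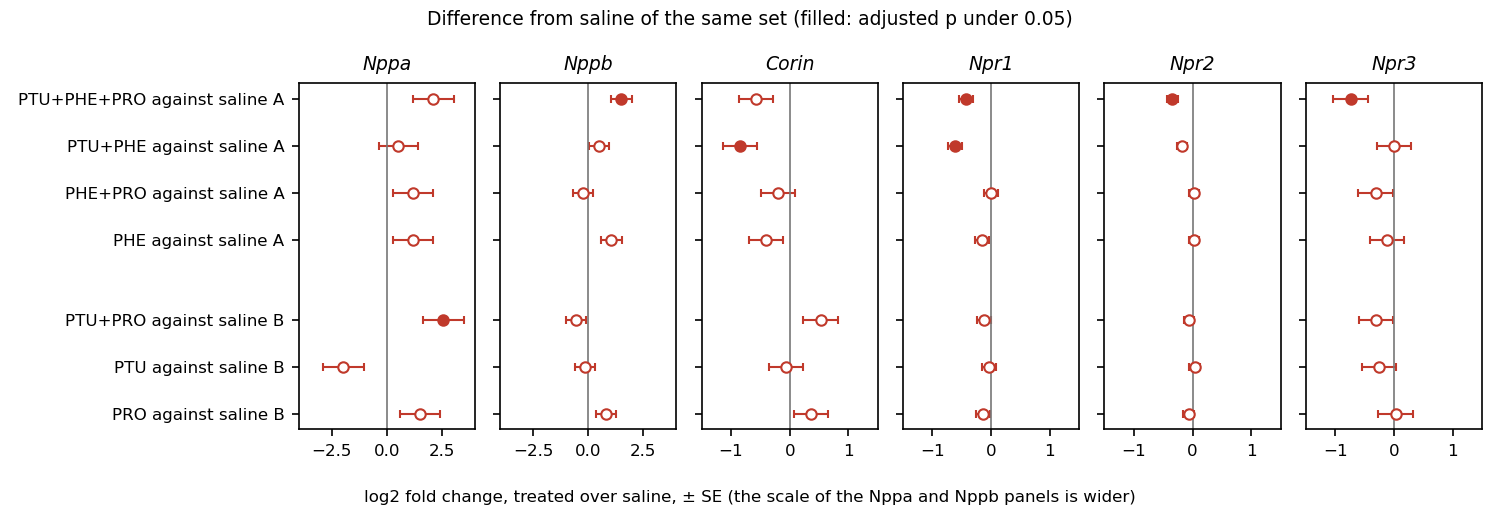
Log2 fold change of each tested member, treated over saline of the same set, with its standard error as the bar; filled points have an adjusted p under 0.05, and the Nppa and Nppb panels have a wider scale. Filled points are Nppb, Npr1, Npr2 and Npr3 in PTU+PHE+PRO, Corin and Npr1 in PTU+PHE, and Nppa in PTU+PRO.

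PTU moved Nppb in opposite directions on the PHE+PRO background of set A and the PRO background of set B. With both blockers on board, Nppb rose in PTU+PHE+PRO hearts against PHE+PRO hearts by 1.75 ± 0.47 on the log2 scale, or 3.37-fold (edgeR, adjusted p = 0.00445), with all hearts above. Nppb, Npr1 and Npr2 were the 3 members called in that comparison, where 47.0% of all genes were. With only these 6 hearts fitted, none of the 3 passed (0.0532, 0.0584 and 0.0564), nor did Nppb without PTU+PHE+PRO heart 2 (1.13, adjusted p = 0.0580). Without PTU+PHE+PRO heart 1, Corin was called there as well (-0.87, adjusted p = 0.0123). With propranolol alone on board, Nppb fell in PTU+PRO hearts against PRO hearts by 1.38 ± 0.46 on the log2 scale (edgeR, adjusted p = 0.0282), with all hearts below. It was 1 member of 6, where 30.2% of genes were called. It was not called without PTU+PRO heart 1 (0.0978), PTU+PRO heart 3 (0.0986) or PRO heart 1 (0.0741). On the other backgrounds Nppb was not called: PTU+PHE against PHE gave -0.58 ± 0.45 (adjusted p = 0.339), and PTU against saline B -0.13 ± 0.45 (0.866).

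The difference between these PTU effects was 3.14 ± 0.66 on the log2 scale (edgeR, adjusted p = 0.00626), a comparison added after the values were seen. No saline heart enters it. Nppb was the 1 member called, where 11.7% of all genes were, and with the length offset the difference was 2.96 (adjusted p = 0.00639). With the replicate block, which keeps only heart 1 of the PHE+PRO group, the difference was 2.45. Phenoxybenzamine and the sequencing set cannot be told apart in it.

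Propranolol added to phenoxybenzamine showed the same kind of contrast without a call. Nppb in PHE+PRO hearts was below all PHE hearts, at -1.30 ± 0.46 (edgeR, adjusted p = 0.103). No member passed, where 5.82% of genes did, 1 member had an unadjusted p under 0.05, and DESeq2 called 1, Nppb (adjusted p = 0.0464). In PTU+PHE+PRO against PTU+PHE hearts the Nppb difference was 1.04 ± 0.46 (adjusted p = 0.260) and that of Nppa 1.59 ± 0.91 (0.419). No member passed, where 2.87% of genes did, 2 had an unadjusted p under 0.05 and DESeq2 called 0. The propranolol effect on Nppb with PTU minus that without, under phenoxybenzamine, was 2.33 ± 0.65 (edgeR, adjusted p = 0.0890; DESeq2, 0.0171). No member was called for it by edgeR, where 1.05% of genes were, and 1 had an unadjusted p under 0.05. The propranolol effect on Nppb under phenoxybenzamine minus that over saline, also added after the values were seen, was -2.11 ± 0.65 (edgeR, adjusted p = 0.113). No member was called there by edgeR, where 1.58% of genes were, 1 had an unadjusted p under 0.05, and DESeq2 called 1, Nppb (0.0327).

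**Figure D3:**
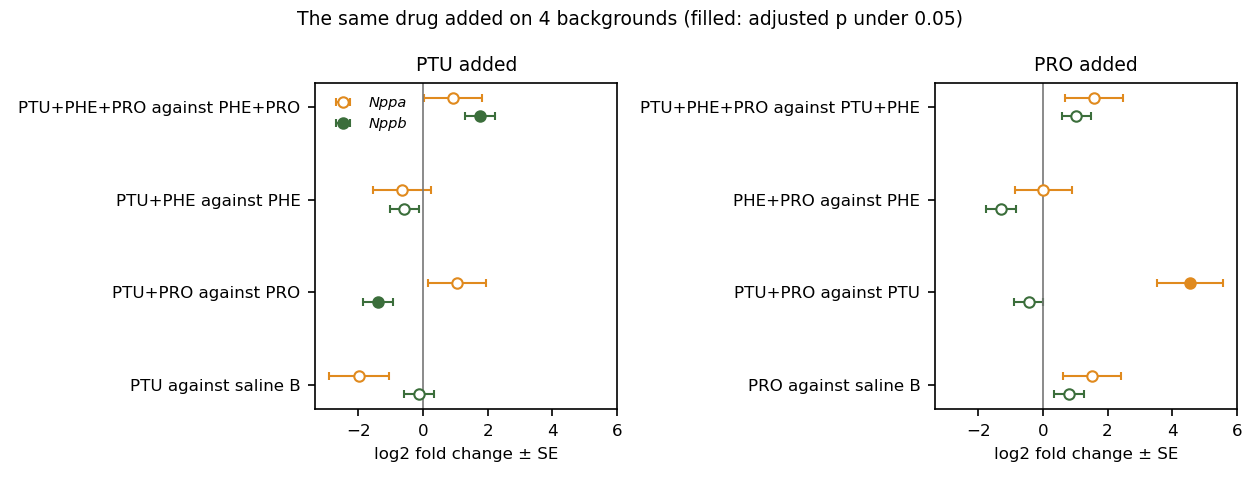
Log2 fold change of Nppa (orange) and Nppb (green), with standard errors, for PTU added and for propranolol added on 4 backgrounds each; filled points have an adjusted p under 0.05. PTU added gave Nppb 1.75 on PHE+PRO and -1.38 on PRO, and propranolol added to PTU gave Nppa 4.56.

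Within single hearts, the balance of the 2 cardiac peptides separated the PTU groups of set B from saline. The ratio of Nppb to Nppa was 0.198 to 0.340 in PTU+PRO hearts and 6.09 to 8.95 in PTU hearts, against 0.902 to 3.60 in saline B hearts. Neither PTU group overlapped saline B. The mean log2 ratio differed from saline B by -3.02 in PTU+PRO and by 1.98 in PTU hearts. Each gave p = 0.1 in an exact two-sided permutation test, the smallest that 3 hearts against 3 allow, and 0.35 after adjustment over the 7 tests of this ratio. In the other 5 comparisons with saline the ratios overlapped.

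Nppc, the CNP gene, was at or near the limit of detection. It had 0 to 9 reads per heart and at most 0.217 CPM in any of the 27 hearts, against a limit of 3 reads per library for a count of 0. No difference in Nppc was detectable at this depth.

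Corin, the ANP-processing protease, fell in 1 comparison with saline. It stood at 175, 64.1 and 93.8 CPM in PTU+PHE+PRO hearts, 86.9, 109.7 and 78.1 CPM in PTU+PHE hearts, 166, 115 and 149 CPM in PHE+PRO hearts and 139, 106 and 129.8 CPM in PHE hearts, against 141, 121 and 233 CPM in saline A hearts. The PTU+PHE hearts were all below saline A and the other groups overlapped it. Corin fell in PTU+PHE hearts by 0.85 ± 0.29 on the log2 scale (edgeR, adjusted p = 0.0192). With Npr1 it was 1 of 2 members called there, where 53.4% of all genes were. The call was lost without PTU+PHE heart 1 (0.0548), PTU+PHE heart 3 (0.0723) or saline A heart 3 (-0.55, adjusted p = 0.137). The PTU+PHE+PRO difference was -0.57 ± 0.29 (adjusted p = 0.105). With sex in the model it passed (-0.59, adjusted p = 0.0414), as it did without PTU+PHE+PRO heart 1 (-1.07, 0.00247).

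In set B Corin was at 229.5, 214 and 308 CPM in PTU+PRO hearts, 162, 186 and 151 CPM in PTU hearts and 188, 254 and 228 CPM in PRO hearts, against 153, 132 and 237 CPM in saline B hearts. The 3 PTU+PRO hearts were above the 3 PTU hearts, and no treated group was separated from saline B. The log2 difference of PTU+PRO from saline B was 0.53 ± 0.29 (edgeR, adjusted p = 0.174) and from PTU 0.59 ± 0.29 (0.564).

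Mme, Pcsk6 and Furin, of the other enzymes that make or break down the peptides, fell in all 4 groups given PTU. The list held 7 genes: Furin and Pcsk6, proprotein convertases that cut the BNP precursor and activate corin, in that order; Mme, Ide and Dpp4, peptidases that break natriuretic peptides down or trim them; Pam, a peptide-amidating enzyme abundant in atrial granules; and Ostn, whose product binds the clearance receptor. Ostn had 0 to 3 reads and was not tested. Of the 6 tested, 1 rose and 4 fell in PTU+PHE+PRO, 0 and 3 in PTU+PHE, 1 and 1 in PHE+PRO and 0 and 0 in PHE hearts against saline A. In set B, 1 rose and 3 fell in PTU+PRO, 1 and 3 in PTU and 0 and 1 in PRO hearts against saline B. The shares of all genes called, given above, were 54.7%, 53.4%, 5.59% and 14.8% in the set A comparisons and 35.9%, 29.4% and 0.272% in those of set B, in the same order. In PTU+PHE hearts the list's 3 of 6 was near the share of all genes. The median log2 difference of the list was -0.61 in PTU+PHE+PRO and -0.48 in PTU+PRO hearts, against 0.04 and 0.01 for all tested genes.

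Mme, which encodes neprilysin, a peptidase that degrades ANP, was low in every group given PTU and in every group given propranolol. It averaged 1.35 ± 0.313 CPM in PTU+PHE+PRO, 2.09 ± 0.219 in PTU+PHE, 7.42 ± 1.26 in PHE+PRO and 13.4 ± 1.11 in PHE hearts, against 16.7 ± 1.35 CPM in saline A. The means of set B were 1.81 ± 0.305 CPM in PTU+PRO, 2.66 ± 0.742 in PTU and 5.29 ± 0.333 in PRO hearts, against 18.7 ± 1.25 CPM in saline B (SD, n = 3 each). Mme fell in 6 of these 7 comparisons with saline. It fell by 3.61 ± 0.19 on the log2 scale in PTU+PHE+PRO (edgeR, adjusted p = 6.49e-13). It fell by 2.81 ± 0.18 in PTU hearts (2.98e-11). It fell by 1.17 ± 0.17 in PHE+PRO (0.000449) and by 1.82 ± 0.17 in PRO hearts (3.2e-06). The PHE difference was -0.32 (adjusted p = 0.187).

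Pcsk6 and Furin fell in all 4 groups given PTU. Pcsk6 fell by 1.49 ± 0.10 in PTU+PHE+PRO, 1.44 ± 0.10 in PTU+PHE, 1.09 ± 0.10 in PTU+PRO and 0.75 ± 0.10 in PTU hearts (edgeR, adjusted p = 3.64e-06 for PTU and lower for the others). Furin fell by 0.68 ± 0.08, 0.87 ± 0.08, 0.63 ± 0.08 and 0.57 ± 0.08 in the same groups, and rose in PHE+PRO by 0.30 ± 0.08 (adjusted p = 0.0261). Dpp4 fell in PTU+PHE+PRO hearts by 0.53 ± 0.17 (0.0101). Ide rose in PTU+PHE+PRO by 0.31 ± 0.10 (0.0155) and in PTU+PRO by 0.35 ± 0.10 (0.00942), and Pam rose in PTU hearts by 0.51 ± 0.13 (0.00497).

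**Figure D4:**
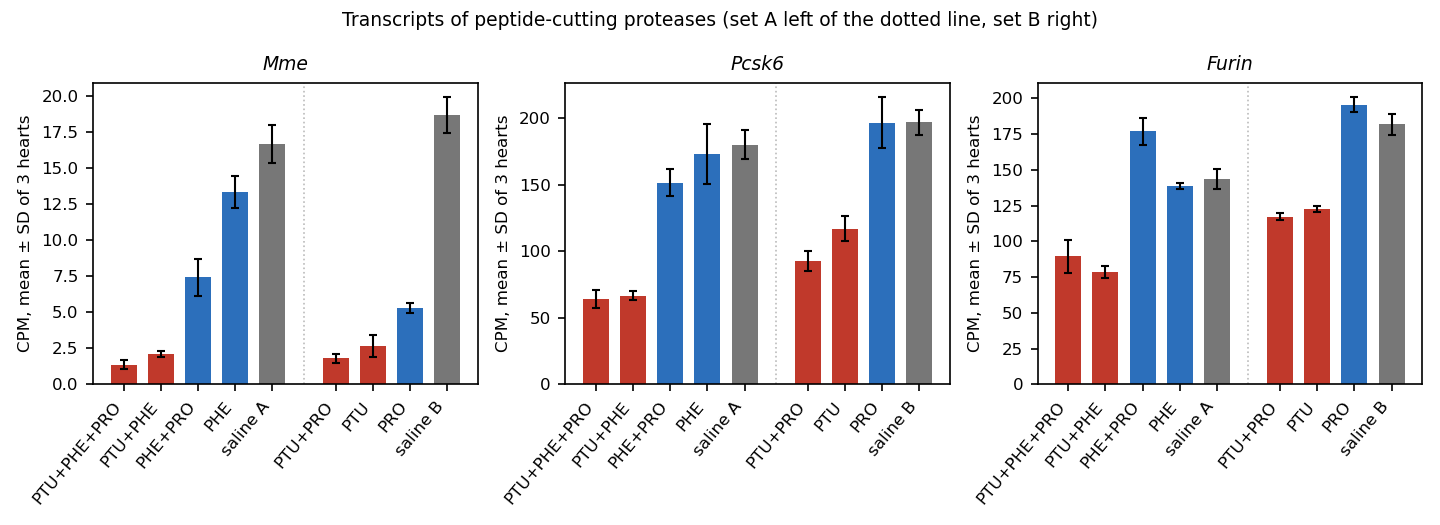
Mean CPM with SD (n = 3) of Mme, Pcsk6 and Furin in the 9 groups, set A left of the dotted line. Mme averaged 1.35 to 2.66 CPM in the 4 groups with PTU, 5.29 and 7.42 CPM in PRO and PHE+PRO hearts, and 16.7 and 18.7 CPM in saline A and saline B.

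Npr1, the receptor of ANP and BNP, fell in both groups given PTU with phenoxybenzamine. It stood at 51.2, 38.2 and 43.8 CPM in PTU+PHE+PRO hearts, 46.0, 33.3 and 36.8 CPM in PTU+PHE hearts, 55.5, 66.9 and 55.8 CPM in PHE+PRO hearts and 52.0, 57.1 and 51.0 CPM in PHE hearts, against 58.8, 59.7 and 60.1 CPM in saline A hearts. All hearts of both PTU groups and of PHE were below saline A. Npr1 fell in PTU+PHE by 0.62 ± 0.12 on the log2 scale (edgeR, adjusted p = 0.000119) and in PTU+PHE+PRO by 0.42 ± 0.12 (0.00388). It fell as well in PTU+PHE against PHE hearts, by 0.46 ± 0.12 (0.00321), the 1 member of 6 called where 36.8% of genes were. In PTU+PHE+PRO against PHE+PRO hearts it fell by 0.42 ± 0.12 (0.00512). In PHE hearts against saline A the difference was -0.16 ± 0.12 (adjusted p = 0.371).

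In set B Npr1 was at 65.4, 54.5 and 58.0 CPM in PTU+PRO hearts, 70.7, 56.1 and 61.7 CPM in PTU hearts and 63.8, 58.0 and 54.3 CPM in PRO hearts, against 65.4, 63.0 and 65.2 CPM in saline B hearts. Every treated group overlapped saline B. The log2 differences were -0.12 ± 0.12 in PTU+PRO (edgeR, adjusted p = 0.445), -0.04 ± 0.12 in PTU (0.840) and -0.14 ± 0.12 in PRO hearts (0.893). The PTU effect on Npr1 under phenoxybenzamine minus that over saline was -0.42 ± 0.16 (adjusted p = 0.138). No member was called for it, where 4.10% of genes were; 1 had an unadjusted p under 0.05, and DESeq2 called 0. Without PTU+PHE heart 1 it was -0.57 (edgeR, adjusted p = 0.0290).

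Endothelial cells carry much of the heart's Npr1, and their markers were low in every group given PTU. Npr1 was called in PTU+PHE+PRO and PTU+PHE hearts but not in PTU+PRO or PTU hearts. The 8 endothelial genes summed to 1124 to 1233 CPM in PTU+PHE+PRO, 1064 to 1334 in PTU+PHE, 1736 to 2008 in PHE+PRO and 1922 to 2155 in PHE hearts, against 1755 to 1823 CPM in saline A. In set B they summed to 1178 to 1306 CPM in PTU+PRO, 1377 to 1499 in PTU and 1617 to 1762 in PRO hearts, against 1748 to 1773 CPM in saline B. In PTU+PHE+PRO 6 of 8 fell and in PTU+PHE 6 fell and 1 rose, with 5 lower in PTU+PRO and 4 in PTU hearts. The shares of all genes called in these comparisons were 54.7%, 53.4%, 35.9% and 29.4%, in the same order. The median log2 difference of these markers was -0.64 in PTU+PHE+PRO, -0.69 in PTU+PHE, -0.43 in PTU+PRO and -0.23 in PTU hearts. Their part in the Npr1 values was not tested.

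Npr2, the CNP receptor, was the steadiest member. It stood at 72.6, 64.6 and 59.0 CPM in PTU+PHE+PRO hearts, 84.6, 67.8 and 67.0 CPM in PTU+PHE hearts, 83.5, 90.1 and 79.5 CPM in PHE+PRO hearts and 91.5, 81.3 and 80.4 CPM in PHE hearts, against 81.6, 87.0 and 80.3 CPM in saline A hearts. Only the PTU+PHE+PRO hearts lay wholly below saline A. Npr2 fell there by 0.34 ± 0.09 on the log2 scale (edgeR, adjusted p = 0.00242), and against PHE+PRO hearts by 0.37 ± 0.09 (0.00172). The PTU+PHE difference from saline A was -0.18 ± 0.09 (0.0898), and it passed without PTU+PHE heart 1 (-0.30, adjusted p = 0.00616). In set B Npr2 ranged over 74.4 to 80.9 CPM in PTU+PRO, 79.4 to 84.1 in PTU and 73.1 to 78.2 in PRO hearts, against 77.2 to 82.9 CPM in saline B. No difference from saline B there exceeded 0.07 in size on the log2 scale, with adjusted p of 0.623 to 0.968. The fibroblast markers, from cells that also make Npr2, fell in 4 of 7 in PTU+PHE+PRO hearts, with sums of 1270 to 2212 CPM against 2478 to 2697 CPM in saline A. In PTU+PHE hearts, where Npr2 was not called, 5 of 7 fell, with sums of 1480 to 1912 CPM. The shares of all genes called were 54.7% in PTU+PHE+PRO, near the 4 of 7 there, and 53.4% in PTU+PHE. In PTU+PRO hearts 4 of the 7 markers fell and 1 rose, where 35.9% of all genes were called. The sums there were 2220 to 2438 CPM, against 2580 to 2845 CPM in saline B. In PTU hearts 2 fell and 1 rose, where 29.4% of all genes were called, with sums of 2841 to 3035 CPM. The markers' part in the Npr2 values was not tested.

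Npr3, the clearance receptor, was called in 1 of the 7 comparisons with saline, that of PTU+PHE+PRO. It stood at 12.3, 12.1 and 11.4 CPM in PTU+PHE+PRO hearts, 16.3, 24.2 and 19.0 CPM in PTU+PHE hearts, 18.0, 13.1 and 16.8 CPM in PHE+PRO hearts and 30.1, 8.35 and 16.1 CPM in PHE hearts, against 14.97, 19.0 and 25.5 CPM in saline A hearts. The PTU+PHE+PRO hearts were below all saline A, PTU+PHE and PHE+PRO hearts, and the PHE hearts spanned the widest range of any group. Npr3 fell by 0.74 ± 0.30 on the log2 scale against saline A (edgeR, adjusted p = 0.0401). The call was lost in the fit of set A alone (0.0691), with the length offset (-0.54, adjusted p = 0.123), and without PTU+PHE+PRO heart 1, 2 or 3 or saline A heart 2 or 3. Endocardial markers, from cells that carry Npr3, summed to 61.5 to 85.9 CPM in PTU+PHE+PRO and 60.9 to 73.2 CPM in PTU+PHE hearts, against 108 to 149 CPM in saline A. In both groups 1 of the 4 fell, Vwf, which made up most of the sum in saline A. The median log2 difference of the 4 was 0.22 in PTU+PHE+PRO and 0.06 in PTU+PHE hearts, where 54.7% and 53.4% of all genes were called. Npr3 in PTU+PHE hearts differed from saline A by less than its SE of 0.29. The markers' part in the Npr3 values was not tested. In set B Npr3 ranged over 16.3 to 17.7 CPM in PTU+PRO, 14.2 to 21.2 in PTU and 20.6 to 22.1 in PRO hearts, against 15.3 to 26.3 CPM in saline B, and no difference was called. The ratio of Npr3 to Npr1 within a heart separated no treated group from saline: it was 0.355 to 0.727 in PTU+PHE hearts against 0.255 to 0.425 in saline A (exact permutation p = 0.2, adjusted p = 0.7 over the 7 tests of this ratio).

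**Figure D5:**
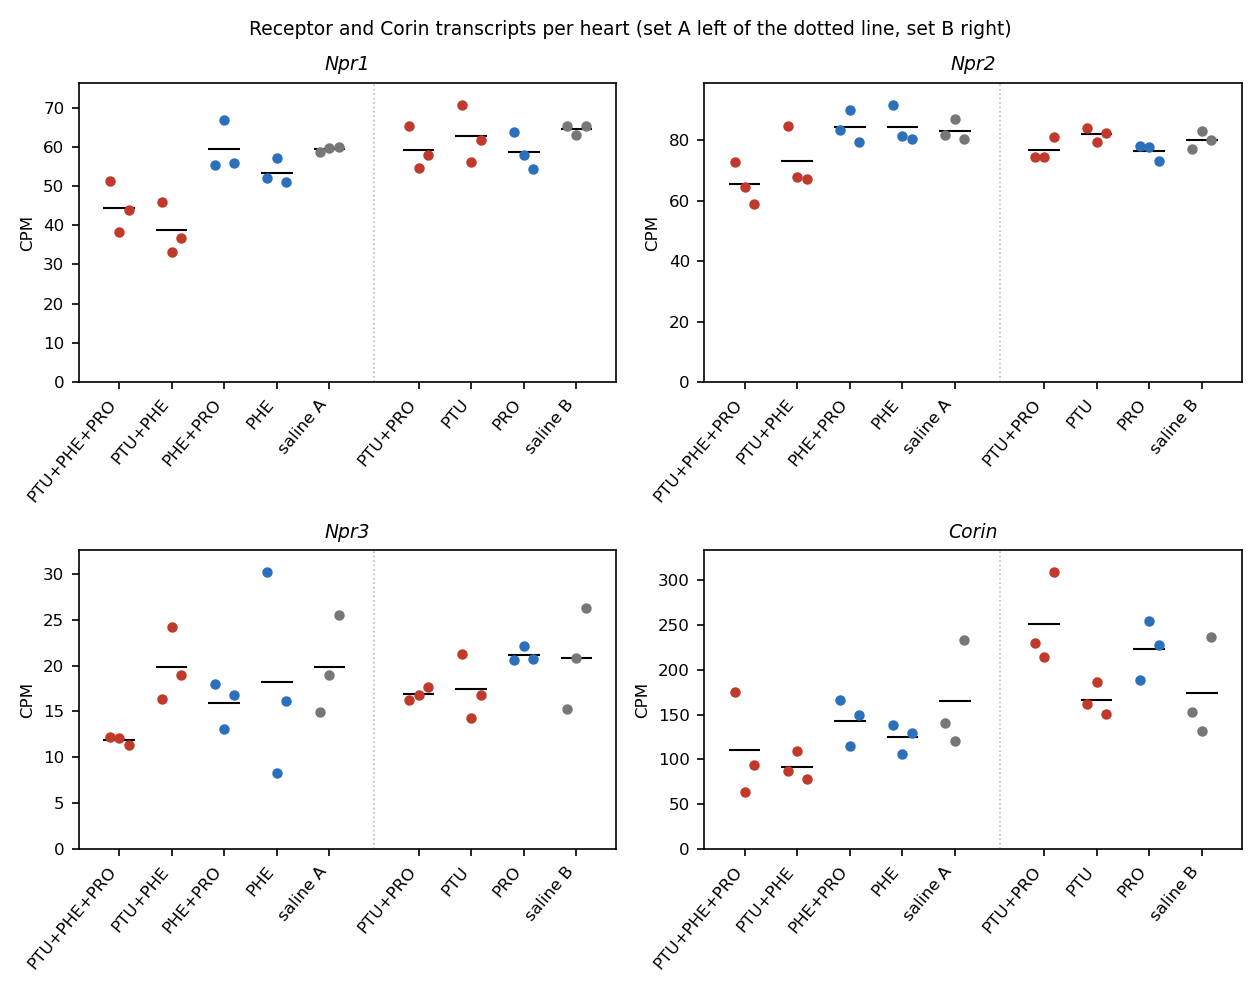
Npr1, Npr2, Npr3 and Corin in CPM (linear axis from 0) in each of the 27 hearts, 3 points a group, with bars at the group means and set A left of the dotted line. Npr1 was at 33.3 to 51.2 CPM in the 6 PTU+PHE and PTU+PHE+PRO hearts, below the 58.8 to 60.1 CPM of saline A.

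Genes of cyclic GMP synthesis, action and breakdown moved in both directions. The list holds subunits of the soluble guanylyl cyclase, which makes cyclic GMP in answer to nitric oxide beside the peptide receptors, cyclic GMP-dependent kinases and their substrates, and phosphodiesterases that break cyclic GMP down, and all 14 were tested. Against saline A, 2 rose and 8 fell in PTU+PHE+PRO, 4 rose and 8 fell in PTU+PHE, 3 fell in PHE+PRO and 2 in PHE hearts. Against saline B, 3 rose and 5 fell in PTU+PRO, 4 rose and 1 fell in PTU, and none passed in PRO hearts. The shares of all genes called were 54.7%, 53.4%, 5.59% and 14.8% in the set A comparisons, in the same order. In those of set B they were 35.9%, 29.4% and 0.272%. The counts in PHE (2 of 14), PTU and PRO hearts were near these shares. The median log2 difference of the list was -0.82 in PTU+PHE+PRO and -0.22 in PTU+PRO hearts, against 0.04 and 0.01 for all tested genes.

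Pde5a, the phosphodiesterase that sildenafil inhibits, fell by 1.00 ± 0.15 on the log2 scale in PTU+PHE+PRO (edgeR, adjusted p = 6.17e-06), 0.79 ± 0.15 in PTU+PHE (0.000121) and 0.72 ± 0.15 in PTU+PRO hearts (0.000459). Irag1, a substrate of cyclic GMP-dependent kinase in smooth muscle, fell by 0.93 ± 0.12 in PTU+PHE+PRO, 0.95 ± 0.12 in PTU+PHE and 0.50 ± 0.12 in PTU+PRO hearts. The soluble cyclase subunits Gucy1a1 and Gucy1b1 fell by 0.83 ± 0.13 and 0.85 ± 0.12 in PTU+PHE+PRO hearts. Pde2a, which cyclic GMP itself activates, fell in all 4 groups given PTU, by 0.60 ± 0.23 to 1.87 ± 0.26. Pde1c rose in the same 4 groups, by 0.39 ± 0.14 to 0.80 ± 0.14, and so did Vasp, a kinase substrate on actin filaments, by 0.38 ± 0.12 to 0.66 ± 0.12. Prkg1, the kinase that cyclic GMP activates in muscle, fell without PTU too, by 1.32 ± 0.27 in PHE+PRO (edgeR, adjusted p = 0.00598) and 0.84 ± 0.26 in PHE hearts (0.0368). Smooth muscle and pericyte markers, from cells rich in these genes, summed to 793 to 957 CPM in PTU+PHE+PRO hearts. The sum was 873 to 1098 CPM in PTU+PHE hearts, against 1400 to 1548 CPM in saline A. In both treated groups 2 of the 7 markers rose and 3 fell, where 54.7% and 53.4% of all genes were called. Their median log2 difference was -0.29 in PTU+PHE+PRO and -0.41 in PTU+PHE hearts. The markers' part in the values of the cyclic GMP genes was not tested.

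The genes that flank Nppa and Nppb moved in both directions. Of 12 genes that lie wholly or partly within 100 kb of the pair, 9 were tested. In PTU+PHE+PRO hearts 1 rose and 3 fell, where 54.7% of all genes were called, and in PTU+PRO hearts 2 rose and 2 fell, where 35.9% were, so that both counts were near the share of all genes. In PTU+PRO hearts, where Nppa rose 5.94-fold, Clcn6, a chloride transporter gene that neighbours Nppa, rose by 0.74 ± 0.15 on the log2 scale (edgeR, adjusted p = 0.00029), while Plod1 and Mfn2 fell by 0.46 ± 0.08 and 0.28 ± 0.11. In PTU+PHE+PRO hearts, where Nppb rose, Clcn6 rose by 0.47 ± 0.15, and Mfn2, Plod1 and Agtrap fell by 0.77 ± 0.11, 0.67 ± 0.08 and 0.37 ± 0.10. Mfn2, Plod1 and Agtrap fell in PTU+PHE hearts and Plod1 in PTU hearts. Clcn6 rose in PHE+PRO by 0.70 ± 0.15 (0.00704).

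The genes whose levels followed each member most closely differed between members. Pearson's r was taken over the 27 hearts on log2 CPM centred on the saline mean of each set, as a description only, since the hearts share treatments and libraries. For Nppb the 3 highest were Tnfrsf12a (r = 0.83), Grwd1 (0.82) and Pkp2 (0.81). For Nppa they were lower, at 0.63 for a gene model without a proper name, 0.63 for Tbc1d1 and 0.62 for Trim25. For Npr1 they were Stab1 (0.93), Git2 (0.92) and Dock6 (0.92), for Npr2 P4ha2 (0.89), Sbk1 (0.88) and Gpr157 (0.88), for Npr3 Dpp4 (0.76), Enpp6 (0.68) and Asxl2 (0.65), and for Corin Pcnt, Fgl2 and Arl13b (0.86 each). Between members, r was 0.15 for Nppa and Nppb, 0.75 for Npr1 and Npr2, and -0.58 for Nppb and Corin.

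In the order of group means from high to low, most neighbours overlapped heart by heart. For Nppa the order was PTU+PRO, PTU+PHE+PRO, PRO, PHE+PRO, PHE, PTU+PHE, saline A, saline B and PTU, and 7 of the 8 neighbouring pairs overlapped, all but saline B and PTU. For Nppb it was PTU+PHE+PRO, PHE, PRO, PTU+PHE, saline A, saline B, PTU, PHE+PRO and PTU+PRO, and all 8 pairs overlapped. All 8 pairs overlapped for Npr1, Npr2 and Corin too, with the lowest mean in PTU+PHE for Npr1 and Corin and in PTU+PHE+PRO for Npr2. For Npr3 7 of 8 overlapped, and PHE+PRO did not overlap PTU+PHE+PRO, the lowest group.

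Between the saline groups of the 2 sets, edgeR called no member, where 4.26% of all genes were called, no member had an unadjusted p under 0.05, and DESeq2 called 0. Npr1 was lower in every saline A heart than in saline B, by -0.12 ± 0.12 on the log2 scale (adjusted p = 0.872). With the same-numbered hearts paired, 3 members were called between saline A and saline B, where 6000 of 16971 tested genes were called. They were Nppa at 0.10 ± 0.04 (edgeR, adjusted p = 0.0386), Npr1 at -0.11 ± 0.03 (0.00811) and Corin at -0.08 ± 0.03 (0.0150). Whether the paired hearts are separate animals is not given, so this spread may be between libraries only.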

How the data were processed

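RNA of whole mouse hearts was extracted with Trizol and made into libraries with the TruSeq RNA kit v2, per the labels' protocols. The deposited values are raw read counts per Ensembl gene. The submitters' processing notes name STAR 2.5.2b, cutadapt 1.9, featureCounts 1.5.1 and the build mm10, and the strand setting is not given in the sources used here. The antisense genes' own rows held at most 46 reads in a heart for that of Nppa, 37 for Npr1 and 402 for Npr2. How reads from stretches shared by a member and its antisense gene were counted is therefore not known. Coordinates and exon lengths come from GENCODE, and 51633 of 51826 identifiers matched a symbol. Of the columns, 2 share a name, both labelled PHE+PRO replicate 2. They were kept as separate hearts, given last among the PHE+PRO values.

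The counts were fitted with edgeR 4.0.16 in R 4.3.3: filterByExpr (minimum count 10, minimum total 15), TMM scaling, 9 group means, robust glmQLFit and two-sided glmQLFTest with a prior count of 0.125 and 18 residual degrees of freedom. The SE is the size of the log2 fold change divided by the square root of F. DESeq2 1.42.0, other scaling and filters, other sample sets, sex, gene length, a replicate block and leaving out each heart were alternatives. Ratios within a heart used 0.5 added to each count and exact permutation tests (scipy 1.17.1). The fits were tested on simulated data. Depth limits the counts: the limit for a count of 0 was taken as 3 reads, for counting error only. The members and lists were chosen with earlier results of these data known. The named genes were all members, list genes that passed, the genes within 100 kb of Nppa or Nppb, and the 3 genes of at least 5 CPM with the highest r to each member. Of the genes that flank Nppa and Nppb, 1 is not reported by name here.

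Same-numbered hearts deviated together in saline A and saline B (r = 0.50, 0.50 and 0.59 over genes, against at most -0.14 for other numbers), so these numbers were taken to pair the saline hearts. In no other comparison was r above 0.1 for every number.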

Additional observations from a re-analysis of the deposited data

Results flagged for a closer look

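The PTU effect on Nppb differed between the PHE+PRO and PRO backgrounds by a test of the difference itself. PTU+PHE+PRO hearts averaged 363 ± 222 CPM, against 108 ± 55.0 CPM in PHE+PRO hearts, and PTU+PRO hearts averaged 83.4 ± 21.4 CPM, against 218 ± 27.3 CPM in PRO hearts (SD, n = 3 each). The PTU effect was 1.75 ± 0.47 on the log2 scale on PHE+PRO (set A) and -1.38 ± 0.46 on PRO (set B), and their difference was 3.14 ± 0.66 (edgeR, adjusted p = 0.00626). This comparison was added after those values were seen, so it restates the contrast that prompted it. With the replicate block, which keeps only heart 1 of the PHE+PRO group, the difference was 2.45. The other PTU effects on Nppb were -0.58 ± 0.45 on PHE (set A) and -0.13 ± 0.45 over saline (set B), neither of them called. Nppb was above all PHE+PRO hearts in 3 of 3 PTU+PHE+PRO hearts and below all PRO hearts in 3 of 3 PTU+PRO hearts. The sets and phenoxybenzamine cannot be told apart in this difference.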

How the results depend on the processing

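With 3 hearts a group, single hearts decided many of the member calls. No alternative run turned the direction of a called member. The calls of Npr1 in PTU+PHE and PTU+PHE+PRO against saline A and in PTU+PHE against PHE, and of Npr2 in PTU+PHE+PRO against saline A, held in all 8 alternatives and in all 6 fits without 1 heart. The number of members called moved as follows, and the cause was not tested. Without the filter on low counts it was 1 in PTU+PHE against saline A, and 0 in PTU+PRO against saline B, PRO and PTU. With only the groups compared it was 1 in PTU against saline B (also 1 with set B alone), 0 in PTU+PHE+PRO against PHE+PRO and 2 in PTU+PRO against PRO. With sex it was 2 in PTU+PHE against PHE. In PTU+PHE+PRO against saline A the 4 members became 3 without the filter, with set A alone, with the block and with the length offset, each without Npr3. They became 5 by DESeq2 and with only the groups compared, each with Nppa added, and 5 with sex, with Corin added. DESeq2 called 1 in PHE+PRO against PHE, 1 for the interaction of PTU and propranolol under phenoxybenzamine, 2 for the PTU effect on PHE+PRO minus that on PRO, and 1 for the propranolol effect on PHE minus that on saline.

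With the replicate block, 0 members were called in PTU+PRO against saline B and in PTU+PRO against PTU. The block leaves out both PHE+PRO libraries labelled 2, so comparisons with PHE+PRO rest there on its heart 1. For the PTU effect on PHE+PRO minus that on PRO, Nppb was at 2.45 with the block. In PTU+PHE against saline A the block gave 3, with Npr2 added (-0.22, adjusted p = 0.0438). The numbers were not found to pair these groups. Between saline A and saline B, fitted alone with the block, 3 were called, where 6000 of 16971 tested genes were.

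Leaving out 1 heart at a time, the members called were 1 to 2 in PTU+PHE against saline A, 2 to 4 in PTU+PHE+PRO against saline A, 0 to 1 in PTU+PRO against saline B, 1 to 2 in PTU+PHE against PHE, 2 to 4 in PTU+PHE+PRO against PHE+PRO, 0 to 1 in PTU+PRO against PRO, 0 to 0 in PTU+PRO against PTU, 0 to 1 for the interaction under phenoxybenzamine, 0 to 1 for the PTU effect on PHE minus that on saline, and 1 to 4 for the PTU effect on PHE+PRO minus that on PRO.

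Counts over all genes moved more. PHE against saline A called 2827 genes, 78 with set A alone and 3637 by DESeq2. PHE+PRO against saline A called 1069, 163 with set A alone and 1756 by DESeq2. PRO against saline B called 52, and 406 with set B alone, and PTU+PHE+PRO against PHE+PRO called 8987, and 5043 with only those groups. PHE+PRO against PHE called 1112, 232 with set A alone and 1730 by DESeq2. PTU+PHE+PRO against PTU+PHE called 549, 3 with only those groups and 1111 by DESeq2, and PTU+PRO against PTU 123, and 1028 with only those groups. The interaction called 200 in set A (9 to 581 over the alternatives) and 3 in set B (4 to 94). The PTU effects across sets called 783 (641 to 1619) and 2234 (888 to 2986), the propranolol effects 302 (304 to 655), and saline A against saline B 814 (723 to 6000). The replicate block is left out of the ranges for 2234 and 302, since it keeps only heart 1 of the PHE+PRO group.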
